A study of Mus musculus with 2 samples.

Results

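The mRNA levels of 9 transcription factors of interferon signalling, Irf1, Irf2, Irf3, Irf5, Irf7, Irf8, Irf9, Stat2 and Stat6, were examined in single cells of the mouse retinal pigment epithelium (RPE) and its neighbours. These genes were found by their symbols among the 32285 genes of the deposited matrices, and all 9 were present. Their unique molecular identifiers (UMIs, tags that count captured mRNA molecules) were summed over the cells of each cell type and library. RPE cells were those with at least 10 UMIs of Rpe65, the isomerase of the visual cycle, and were divided further by Serpina3n, a secreted protease inhibitor, below or at and above 1000 CPM (UMIs of the gene per 1000000 UMIs of the same cell).

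The study compared eyes given low-dose doxorubicin (Dox), a DNA-damaging drug used there to bring on senescence of the RPE, with eyes given phosphate-buffered saline (PBS). Both groups were male C57BL/6J mice of 3 months that received a subretinal injection of 1 µl, either PBS (Control) or Dox at 100 ng/µl, and were taken 7 days later. Each of the 2 conditions was a single library that pooled 10 eyes of 5 mice, so the control eyes shared the injection and the retinal detachment that goes with it, and the injected fluid reached only a portion of the RPE. The pieces of RPE, choroid and sclera were digested with papain, and the mRNA was read from its 5′ end. With 1 library per condition no test between conditions was possible, and the treatment, the library and the pool of mice cannot be told apart. Intervals are 95% intervals that cover counting error only, since cells of a library are not replicates.

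The deposited matrices held 20381 control and 15649 Dox cells with 117731270 and 103997248 UMIs, of which 20180 and 15426 passed the limits of the study on depth, genes and mitochondrial RNA, at medians of 4495 and 4995 UMIs. In the deposited matrices 441 cell barcodes were shared by both libraries. The Rpe65 rule gave 1526 control and 1630 Dox RPE cells with medians of 16014 and 18116 UMIs. All 9 RPE markers were detected, at a sum of 172595 CPM in control and 171496 CPM in Dox cells. Most of that sum was Ttr (69732 and 70884 CPM) and Ptgds (71926 and 70268 CPM). Rpe65 is among the 9 and chose the cells, so its detection is no check of the label. Of the RPE cells, 1445 and 1553 lay in clusters with an RPE signature. A cluster led by hemoglobin genes held 42 and 47, and other clusters held 39 and 30. Serpina3n reached 1000 CPM in 15 control RPE cells (0.983%, exact binomial interval 0.551 to 1.62%) and in 208 Dox RPE cells (12.8%, 11.2 to 14.5%). Those Serpina3n-high cells were deeper, at medians of 33954 and 28244 UMIs, than the 1511 and 1422 Serpina3n-low cells, at 15957 and 16608 UMIs.

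Cells answer viral nucleic acid and interferons through these factors. Irf3 and Irf7 lie downstream of the nucleic acid sensors and switch on the type I interferon genes, and interferon that binds its receptor acts through a complex that holds Stat2 and Irf9 and binds the interferon-stimulated response element (ISRE) of its target genes. Irf7 is itself such a target, which makes it an amplifier of the response. Irf1 is a target of interferon gamma through the gamma-activated site (GAS), Irf2 opposes Irf1 at shared sites, Irf5 and Irf8 act chiefly in myeloid and B cells, and Stat6 carries the signal of interleukin 4 and interleukin 13.

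The promoter sequences of the 4 genes whose levels in RPE cells the results turn on are shown first, so that the letters of the upstream region stand beside the levels. They are the 250 bases before the RefSeq start site, 5′ to 3′ on the strand of the gene, from the GRCm38.p6 assembly. Capitals mark a match on either strand to the ISRE letters (GAAA, any 2 bases, GAAA) or to the GAS letters TTCNNNGAA.

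Irf7: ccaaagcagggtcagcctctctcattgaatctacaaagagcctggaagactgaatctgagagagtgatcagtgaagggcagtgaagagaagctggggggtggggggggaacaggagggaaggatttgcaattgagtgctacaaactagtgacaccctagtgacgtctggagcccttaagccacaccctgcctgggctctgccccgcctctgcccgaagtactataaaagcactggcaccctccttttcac
Irf9: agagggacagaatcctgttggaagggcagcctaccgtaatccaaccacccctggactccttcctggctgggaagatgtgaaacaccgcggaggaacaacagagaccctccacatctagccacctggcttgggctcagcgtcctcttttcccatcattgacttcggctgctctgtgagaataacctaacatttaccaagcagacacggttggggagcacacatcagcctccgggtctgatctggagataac
Stat2: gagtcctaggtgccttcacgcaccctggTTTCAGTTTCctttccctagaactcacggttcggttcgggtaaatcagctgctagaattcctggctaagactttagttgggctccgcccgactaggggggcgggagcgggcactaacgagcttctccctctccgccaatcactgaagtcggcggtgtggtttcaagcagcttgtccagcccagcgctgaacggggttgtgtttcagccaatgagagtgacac
Irf1: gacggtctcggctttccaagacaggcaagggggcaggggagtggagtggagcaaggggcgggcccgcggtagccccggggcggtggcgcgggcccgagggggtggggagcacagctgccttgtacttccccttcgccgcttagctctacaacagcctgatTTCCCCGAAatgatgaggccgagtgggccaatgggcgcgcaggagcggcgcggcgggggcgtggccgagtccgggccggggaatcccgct

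Irf7 (ENSMUSG00000025498) spans chr7:141262706-141266481, Irf9 (ENSMUSG00000002325) chr14:55603571-55610030, Stat2 (ENSMUSG00000040033) chr10:128270559-128292849 and Irf1 (ENSMUSG00000018899) chr11:53770014-53778374 in GRCm38. The Irf7 window was chr7:141266425-141266674 on the minus strand and held neither motif. The Irf9 window, chr14:55603735-55603984 on the plus strand, held neither, nor did the window of its second start site at chr14:55604329-55604578. Both Irf9 windows lie inside the gene span given above, so the sequence before that span was not searched. The Irf7 window partly overlaps the span of its gene. In the Stat2 window, chr10:128270248-128270497 on the plus strand, an ISRE match on the reverse strand lay at -222 to -213 relative to the start site. The Irf1 window, chr11:53769764-53770013 on the plus strand, held a GAS match at -90 to -82. Among the other members, Irf2 held an ISRE match at -241 and a GAS match at -224, and Irf8 held GAS matches at -171 and -153. No window of Irf3, Irf5 or Stat6 held either set of letters. Of 32851 RefSeq windows of this length, 2.98% held the ISRE letters and 7.02% the GAS letters. The shorter core AANNGAAA, which every ISRE match contains, was found in 21.3% of windows and in those of Irf2, Stat2 and Stat6. A match describes letters and not binding, and these windows leave out all other regulatory sequence.

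Irf7, Irf9 and Stat2 were more abundant in Dox-RPE than in control RPE, and Irf5 was less abundant at a level near the detection limit. Irf7, the amplifier, had 226 UMIs or 8.59 CPM (exact Poisson interval 7.51 to 9.78) in control RPE and 749 UMIs or 24.0 CPM (22.3 to 25.8) in Dox-RPE. The Dox level was 2.80-fold the control level, a log2 ratio of 1.48 with an exact conditional binomial interval of 1.27 to 1.70. Irf9, the DNA-binding member of the interferon complex, went from 447 UMIs (17.0 CPM) to 944 UMIs (30.3 CPM), which was 1.78-fold (log2 0.83, 0.67 to 0.998). Stat2, its partner, was at 429 UMIs (16.3 CPM) in control and 841 UMIs in Dox-RPE, 1.65-fold in CPM (log2 0.73, 0.56 to 0.90).

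At a limit of 1.5-fold and at least 20 UMIs over both libraries, 3 of 9 members were higher in Dox-RPE, where 2.93% of 14215 genes were, and 1 of 9 was lower, where 7.44% were. The median log2 ratio of the members was 0.04 and that of all these genes was -0.02, so the 9 factors did not move as a block. The log2 intervals of Irf7, Irf9 and Stat2 lay wholly above 0, as the plot of RPE levels shows.

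Irf3, the constitutive sensor-driven factor, was at 778 UMIs (29.6 CPM) in control and 929 UMIs (29.8 CPM) in Dox-RPE, a log2 ratio of 0.01 with an interval of -0.13 to 0.15. Irf2, the antagonist of Irf1, stood at 22.9 and 23.7 CPM (log2 0.05, -0.11 to 0.21), and Stat6 had 527 and 588 UMIs and a log2 ratio of -0.09 (-0.26 to 0.08). For these 3 genes the interval included 0 and lay within 1.5-fold. Irf8, the myeloid and lymphoid factor, had only 55 UMIs in control and 67 UMIs in Dox-RPE (log2 0.04, -0.50 to 0.58).

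Irf1 had 2690 UMIs or 102 CPM in control RPE and 2566 UMIs or 82.2 CPM in Dox-RPE, 1.24-fold lower (log2 -0.31, -0.39 to -0.24). Irf5, which acts with toll-like receptors in myeloid cells, had 23 UMIs in control and 11 UMIs in Dox-RPE, 0.874 and 0.353 CPM (log2 -1.31, -2.49 to -0.22). Both directions depended on the cells taken: with RPE cells set at 5 or more Rpe65 UMIs the log2 ratio of Irf1 was 0.12, and in the main and the Serpina3n-led RPE clusters alone that of Irf5 was 0.28. Markers of other cell types were lower in Dox-RPE as well. The 12 fibroblast markers summed to 1995 CPM in control and 1309 CPM in Dox-RPE, with 2 of 12 higher in Dox, and the 12 macrophage markers summed to 397 and 191 CPM, with 0 of 12 higher. Relative to fibroblast-like cells, the fibroblast markers were found in RPE cells at a median of 7.38% (range 3.18 to 9.22%) in control and 5.15% (4.21 to 16.9%) in Dox. Irf1 lay at 7.66% and 6.33% of its fibroblast-like level on the same scale. Irf5 lay at 0.688% and 0.321% of its level in macrophage-like cells and Irf8 at 1.81% and 1.41%, where the macrophage markers had medians of 0.718% and 0.281%. Against natural killer (NK) or T-like cells Irf8 lay at 1.425% and 0.784%, above the highest NK or T marker (0.468% and 0.426%). The levels of Irf1 and Irf5 in RPE cells were therefore within the range of the fibroblast and macrophage markers, respectively. That of Irf8 was within the range of the macrophage markers but above the NK or T markers. The part of other cell types in the ratios of these 3 genes was not tested. Irf7 was at 19.4% of its fibroblast-like level in control and 47.7% in Dox-RPE, Irf9 at 40.3% and 69.9%, and Stat2 at 45.9% and 76.9%, each above the highest fibroblast marker in both libraries. Against macrophage-like cells, Irf7 in RPE cells was at 12.1% in control and 18.0% in Dox. These values were above the medians of the macrophage markers but under the highest of them (18.6% and 19.4%). In Serpina3n-low cells Irf7 was at 12.1% in control and 10.8% in Dox, so it was not higher in Dox on this scale. In Serpina3n-high Dox cells it was at 51.2%. The macrophage-like level used as the scale was itself 71.0 CPM in control and 133 CPM in Dox. The part of macrophage RNA in the Irf7 values was not tested.

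Outside the Serpina3n-high cells the same 3 members were past 1.5-fold. In Serpina3n-low cells Irf7 had 8.58 CPM in control cells and 14.4 CPM in Dox cells (1.68-fold, log2 0.75, 0.50 to 0.99), and Irf9 had 17.1 and 27.2 CPM (1.59-fold, log2 0.67, 0.50 to 0.85). Stat2 was at 16.4 and 25.1 CPM, 1.53-fold (log2 0.62, 0.44 to 0.80). Thus 3 of 9 members were higher, beside 2.41% of 14079 genes, a count that was 2 under 4 other settings. After thinning to 5000 UMIs Irf7 was at 10.1 and 13.0 CPM (1.28-fold), Irf9 was 1.43-fold higher as the mean of the cells' own CPM, and Stat2 was 1.45-fold higher with RPE cells at 20 or more Rpe65 UMIs and 1.48-fold higher with the Serpina3n split at 500 CPM. Lower in Dox was Irf5, 1 of 9, beside 6.18%. The ratio of Irf7 in these cells was smaller than over all RPE cells, where 208 Serpina3n-high Dox cells added 380 of the 749 Irf7 UMIs. Irf1 was at 103 and 90.5 CPM (log2 -0.19, -0.27 to -0.10; 0.0774 after thinning to 5000 UMIs), and the other 4 members had intervals that included 0.

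Serpina3n-high cells of Dox eyes carried the highest Irf7 of the RPE groups. Their level was 68.3 CPM from 380 UMIs, against 8.83 CPM from 4 UMIs in the 15 Serpina3n-high control cells (log2 2.95, 1.58 to 4.83). Irf9 stood at 6 UMIs (13.3 CPM) and 248 UMIs (44.6 CPM), a log2 ratio of 1.75 (0.61 to 3.21), and Stat2 at 6 and 198 UMIs (13.3 and 35.6 CPM, interval 0.28 to 2.89). Irf2 was past the limit here too, at 4 and 138 UMIs (8.83 and 24.8 CPM, log2 1.49, 0.10 to 3.39), a direction that turned to -0.68 when cells were thinned to 5000 UMIs. The count was 4 of 7 members higher and 0 of 7 lower, but 21.3% of the 9979 genes with 20 UMIs were higher and 14.4% lower, and the control side rests on 452790 UMIs. Irf5 and Irf8 had no UMI in the control cells and 1 and 6 UMIs in the Dox cells; both sides were under the 6.63 CPM that 3 counts make in the control cells, and no fold is given.

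Within the Dox library, whose 1422 low and 208 high cells went through 1 preparation, the comparison does not rest on the few control cells. Irf7 was at 14.4 CPM in the low and 68.3 CPM in the high cells, 4.74-fold (log2 2.25, 2.04 to 2.46). Irf9 was 1.64-fold higher (log2 0.71, 0.50 to 0.93) and Stat2 1.42-fold higher (log2 0.50, 0.27 to 0.74) in the high cells. Irf1 went the other way, 90.5 CPM in the low and 44.0 CPM in the high cells, 2.06-fold lower (log2 -1.04, -1.24 to -0.85). The intervals of Irf2, Irf3 and Stat6 included 0, at log2 ratios of 0.08, -0.09 and -0.08. Past 1.5-fold were 2 of 8 members higher and 2 lower (Irf1, and Irf8 at 61 and 6 UMIs with an interval that includes 0), where 5.51% of 13111 genes were higher and 23.3% lower. Markers of other cells were low in the Dox Serpina3n-high cells: fibroblast markers summed to 510 CPM with Dpt at 0, macrophage markers to 114 CPM with Mrc1 at 0, and natural killer (NK) and T cell markers to 0.18 CPM with 9 of 10 at 0. Irf1 in these cells was at 3.39% of its fibroblast-like level, just above the fibroblast markers (median 2.44%, 0 to 3.07%), and Irf7 was at 136% of its fibroblast-like level. In control RPE, the 15 high cells did not differ detectably from the low cells in Irf7 (log2 0.04, -1.85 to 1.42).

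**Figure D1:**
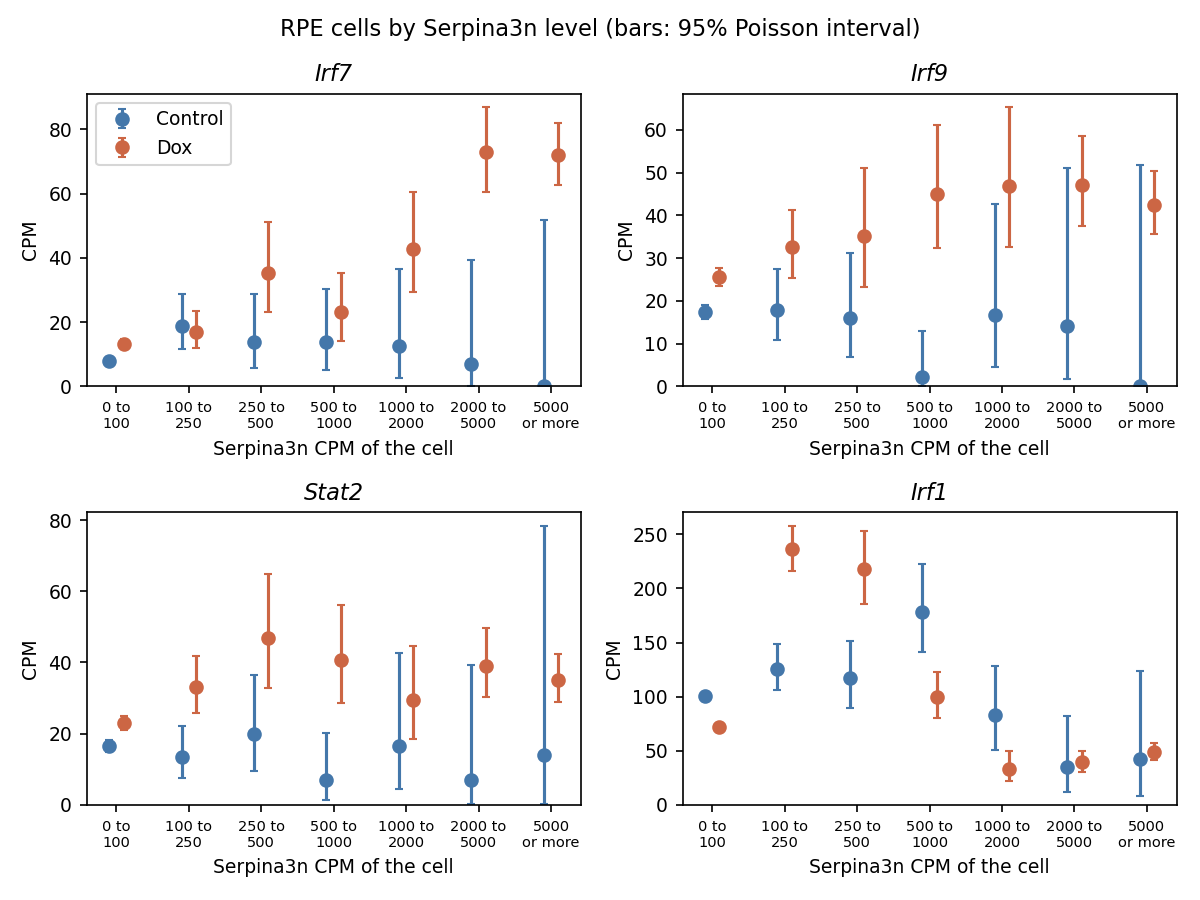
Level of Irf7, Irf9, Stat2 and Irf1 in RPE cells grouped by the cell's own Serpina3n level (CPM, horizontal axis in steps), in CPM from 0 with exact Poisson 95% intervals as bars, for the Control and Dox libraries. In Dox cells Irf7 went from 13.1 CPM below 100 CPM of Serpina3n to 72.8 CPM between 2000 and 5000 CPM, whereas Stat2 had its highest value, 46.9 CPM, between 250 and 500 CPM.

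Along Serpina3n, the level of Irf7 in Dox cells was higher in the upper bins. Just below the limit of 1000 CPM, at 500 to 1000 CPM of Serpina3n, 57 Dox cells had 23.1 CPM of Irf7 (14.3 to 35.3), and just above it, at 1000 to 2000 CPM, 37 Dox cells had 42.9 CPM (29.3 to 60.5). The lowest bin of 1107 Dox cells was at 13.1 CPM, the 74 cells at 250 to 500 CPM were at 35.2 CPM, the 67 cells at 2000 to 5000 CPM at 72.8 CPM and the 104 cells above that at 71.9 CPM. Control cells of the lowest bin, 1399 in number, had 7.90 CPM of Irf7, below the Dox cells of the same bin. At 100 to 250 CPM of Serpina3n the libraries were alike. There 63 control cells had 18.7 CPM of Irf7 (11.6 to 28.65) and 184 Dox cells had 17.0 CPM (11.9 to 23.6). In the bins from 250 CPM up control was below Dox, but each control value there came from 7 or fewer UMIs. Irf9 in Dox cells lay between 25.6 CPM in the lowest bin and 47.2 CPM at 2000 to 5000 CPM. Irf1 peaked in the middle of the range, at 237 CPM between 100 and 250 CPM of Serpina3n, where the cells were shallow (median 8882 UMIs), and was at 33.5 to 49.0 CPM in the 3 bins above the limit.

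Irf7 was unevenly spread among Dox-RPE cells. At least 1 UMI was found in 11.2% of control and 22.0% of Dox RPE cells, and the most Irf7 UMIs in a cell were 4 in control and 28 in Dox. At least 3 Irf7 UMIs were seen in 11 control and 65 Dox cells, whereas 103 of the 208 Serpina3n-high Dox cells had none. After each cell was thinned to 5000 UMIs, which left out 186 and 202 shallower cells, the shares with an Irf7 UMI were 4.48% (3.43 to 5.73%) in control and 7.49% (6.18 to 8.98%) in Dox. In the thinned Serpina3n-low cells they were 4.53% and 5.60%, with overlapping intervals, and in the Dox Serpina3n-high cells 19.5% (14.2 to 25.8%). For Irf9 the shares of RPE cells were 21.8% and 36.2%, and after thinning 8.28% and 13.4%. Stat2 was found in 21.8% and 35.8% of RPE cells, and after thinning in 7.84% and 13.2%. No cell type here lacks these 3 genes, so the share that free RNA alone would give is not known for them.

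Across the 4 RPE clusters, which were formed without the members or the interferon genes, the log2 ratios of Irf7, Irf9 and Stat2 were largest in the cluster led by Serpina3n. That cluster held 73 control and 243 Dox cells; its Irf7 was at 10.5 and 57.7 CPM (5.52-fold, log2 2.46, 1.86 to 3.14), its Irf9 at 10.9 and 43.8 CPM (4.01-fold) and its Stat2 at 8.64 and 31.7 CPM (log2 1.87). Irf2 and Stat6 were higher in Dox there too, with lower interval ends near 0. Irf2 was at 33 and 166 UMIs (log2 0.64, 0.09 to 1.22) and Stat6 at 26 and 129 UMIs (log2 0.62, 0.0024 to 1.29). The main RPE cluster, led by Serpine3, held 905 and 921 cells. There Irf7 was at 5.84 and 12.1 CPM, Irf9 at 17.1 and 23.8 CPM (log2 0.48) and Stat2 at 14.8 and 21.9 CPM (log2 0.57), while fibroblast markers were at 353 and 263 CPM and Irf1 at 32.9 and 25.8 CPM (log2 -0.35).

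The cluster led by Gm45895 (340 and 195 cells) had fibroblast markers at 6919 CPM (control) and 8473 CPM (Dox). Irf1 there was at 307 and 476 CPM, a log2 ratio of 0.63, opposite in sign to the main cluster. Irf8 was at 23 and 31 UMIs (log2 1.36, 0.53 to 2.20). Irf9 was at 17.6 and 33.1 CPM (log2 0.91), Irf7 was higher in Dox with a log2 ratio of 0.60, and Stat2 was at 19.3 and 24.7 CPM (log2 0.36, -0.09 to 0.79). The remaining cluster, led by Gm45159 and shallow at medians of 3767 and 4887 UMIs, had Stat2 at 66.2 and 83.7 CPM, Irf9 at 34.6 and 44.3 CPM and Irf7 at 7.53 and 18.5 CPM, all with intervals of the ratio that included 0. Intervals above 0 were thus those of Irf7, Irf9 and Stat2 in the Serpine3-led and Serpina3n-led clusters, and of Irf7 and Irf9 in the Gm45895-led cluster. The share of all genes with such intervals in these clusters was not computed.

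**Figure D2:**
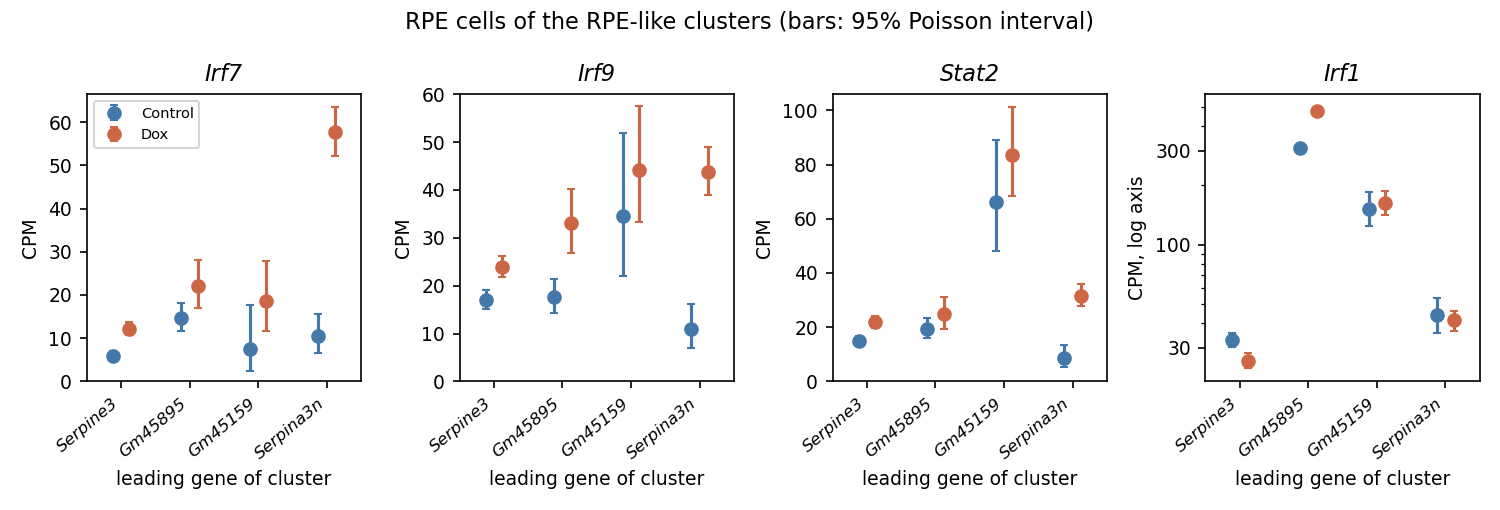
Level of Irf7, Irf9, Stat2 and Irf1 in CPM (from 0, and for Irf1 on a log axis) in the 4 RPE clusters, each named by its leading gene, in the Control and Dox libraries with exact Poisson 95% intervals. Irf7 in the Serpina3n-led cluster was at 10.5 CPM (control) and 57.7 CPM (Dox), and Irf1 in the Gm45895-led cluster at 307 and 476 CPM.

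The other genes of the pathway in RPE cells were described with the same limit of 1.5-fold, list by list. None of the 11 genes of the ligand list (interferons alpha, beta, gamma, epsilon, kappa and lambda) reached 20 UMIs, and their summed level was 0.114 CPM in control and 0.0641 CPM in Dox-RPE, which is at the limit of detection at this depth. Of the 9 receptor and kinase genes none was past the limit in either direction (median log2 -0.22), beside 2.93% of all genes higher and 7.44% lower. Ifnar1, a chain of the type I receptor, was at 256 and 351 UMIs, and Ifnar2, the other chain, at 1758 and 2198 UMIs (log2 0.08, -0.01 to 0.17). Within the Dox library 3 of 8 measured genes were higher and 0 lower in the Serpina3n-high cells, beside 5.51% and 23.3% of all genes. Ifnar2 was at 111 CPM in the high cells, against 61.7 CPM in the low cells (log2 0.84, 0.71 to 0.98). Ifngr2 (log2 0.78, 0.50 to 1.06) and Il10rb (log2 0.78, 0.47 to 1.07) were the others, and the median log2 ratio of the 8 was -0.16.

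Of 12 measured genes of nucleic acid sensing, 3 were higher and 3 lower, beside 2.93% and 7.44% of all genes. The higher ones were the RNA sensors Dhx58 (21 and 51 UMIs, log2 1.03), Ifih1 (9.16 and 14.4 CPM, log2 0.66) and Ddx58 (16.8 and 25.5 CPM, log2 0.60). The lower ones, Zbp1, Tmem173 and Cgas, had at most 25 UMIs per library, and the intervals of Zbp1 and Cgas included 0. All 3 RNA sensors have themselves been described as interferon-induced genes.

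Genes of the type I interferon response were the group most often past the limit: 12 of 21 measured genes were higher and 1 lower in Dox-RPE (2.93% and 7.44% of all genes), with a median log2 ratio of 0.84, and their summed level was 908 CPM in control and 1774 CPM in Dox. Ifit3, an antiviral protein, was at 63.4 and 165 CPM (log2 1.38, 1.30 to 1.46), Rtp4 at 15.5 and 36.2 CPM (log2 1.23) and Ifi44 at 8 and 43 UMIs (log2 2.18, 1.08 to 3.48). Sp100, a nuclear body protein, was the lower one, at 43 and 26 UMIs. In Serpina3n-low cells 9 of 21 were higher and 1 lower (2.41% and 6.18% of all genes), with a median of 0.47. In the Serpina3n-high cells 17 of 20 were higher and 2 lower (21.3% and 14.4% of all genes). Of the higher ones, Ifi44 and Parp14 had no control UMI and allow no fold. Usp18, a protease that removes Isg15 from proteins, was at 2 and 211 UMIs (log2 3.10, 1.23 to 6.16). The lower ones were Ifit2 (6 and 17 UMIs, log2 -2.12, -3.53 to -0.49) and Samhd1 (6 and 49 UMIs, log2 -0.59, interval including 0). Isg15 itself was at 34 and 293 UMIs (log2 -0.51, -1.03 to 0.04). Within the Dox library 15 of 21 were higher and 2 lower in the high cells (5.51% and 23.3% of all genes), at 1514 and 2973 CPM in sum.

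For the interferon gamma response the count over all RPE cells was smaller, 5 higher and 1 lower of 18 measured genes (2.93% and 7.44% of all genes). The median log2 ratio was 0.11. In Serpina3n-low cells 5 of 18 were higher and 1 lower (2.41% and 6.18% of all genes), at a median of -0.0015. In Serpina3n-high cells, with few control UMIs, 10 of 14 were higher and 2 lower (21.3% and 14.4% of all genes), at a median of 2.25. Of the higher ones, Iigp1 (33 Dox UMIs) and Irgm2 (29 Dox UMIs) had no control UMI. They reached 20 UMIs through the Dox cells alone and allow no fold, yet are counted and enter the median. Within the Dox library 8 of 17 were higher and 3 lower in the high cells (5.51% and 23.3% of all genes), at a median of 0.57. Gbp3, a guanylate-binding protein, was at 19.5 and 58.4 CPM (log2 1.58, 1.44 to 1.73), Tap1, a peptide transporter of antigen presentation, at 86 and 248 UMIs (log2 1.28) and Irgm1 at 15.8 and 32.8 CPM (log2 1.06). Cxcl10, a chemokine of the gamma response, was the lower gene, at 46.1 and 27.7 CPM. Within the Dox library Cxcl10 was at 31.5 CPM in the low and 10.1 CPM in the high cells, the same direction as Irf1. The fibroblast markers also summed to less in the high cells, 510 CPM against 1483 CPM in the low cells. The part of fibroblast RNA in the Cxcl10 and Irf1 values was not tested. Tap1 was at 5.11 CPM in the low and 21.0 CPM in the high cells and Irgm1 at 23.8 and 74.4 CPM, the direction of Irf7. Of the 4 measured genes around Stat6, none was higher and 2 were lower (2.93% and 7.44% of all genes). These were Il2rg at 44 and 32 UMIs and Retnla at 58 UMIs and 1 UMI (log2 -6.10, -11.4 to -3.57). Retnla is also the first of the leading genes of the macrophage-like cluster, and macrophage markers summed to less in Dox-RPE, as given above.

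**Figure D3:**
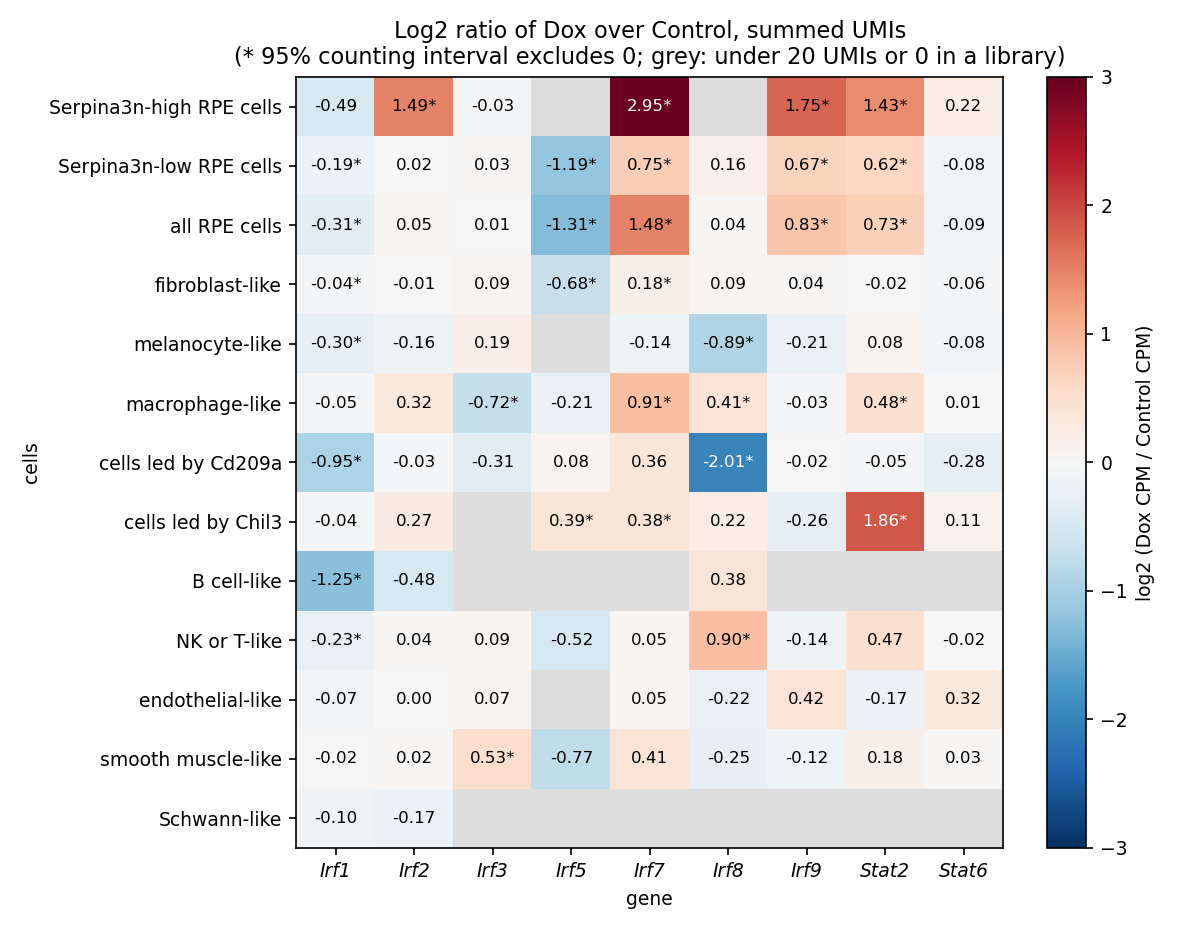
Log2 ratio of Dox over control for each member (columns) in each group of cells (rows), as colour and number; a star marks an exact conditional binomial 95% interval that excludes 0, and grey a gene under 20 UMIs or at 0 in a library. For Irf7, RPE cells were at 1.48 and macrophage-like cells at 0.91, where 2 Dox cells held 50 of 153 UMIs, whereas fibroblast-like cells were at 0.18.

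In the other cell types most ratios were close to 0 or had wide intervals. Irf7 had 44.3 CPM in control fibroblast-like cells and 50.3 CPM in Dox fibroblast-like cells (log2 0.18, 0.11 to 0.26), the largest group with 11872 and 9461 cells. In macrophage-like cells (566 and 272) Irf7 was at 71.0 and 133 CPM, a log2 ratio of 0.91 (0.59 to 1.23), but 2 Dox cells held 50 of the 153 UMIs there, and after thinning to 5000 UMIs the levels were 67.0 and 94.7 CPM. In NK or T-like cells it was at 75.9 and 78.7 CPM (log2 0.05, -0.31 to 0.41). Irf9 in fibroblast-like cells was at 42.2 and 43.3 CPM and Stat2 at 35.5 and 35.1 CPM, with log2 ratios of 0.04 and -0.02 and intervals within 0.12 of 0. Macrophage-like cells had Irf9 at 46.2 and 45.3 CPM and Stat2 at 38.7 and 54.1 CPM (log2 0.48, interval from 0.00 to 0.96). In the cells led by Chil3 (79 and 44) Stat2 was higher in Dox, at 9 and 21 UMIs (log2 1.86, 0.67 to 3.17). Irf7 there had a log2 ratio of 0.38 (0.04 to 0.72) and Irf9 of -0.26 (-1.08 to 0.52). Whether the ratios of RPE cells differ from those of other types was not tested, since each rests on the same pair of libraries.

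Irf1 was lower in Dox also in B cell-like cells (68 and 20 UMIs, log2 -1.25), in cells led by Cd209a (log2 -0.95), in melanocyte-like cells (log2 -0.30) and in NK or T-like cells (log2 -0.23). The naming rule left the cells led by Cd209a unnamed because that gene is known from a cell type with no marker list here. Cells with at least 10 Irf1 UMIs weigh on the values of the first pair of types: 4 of the 39 control B cell-like cells held 48 of the 68 UMIs and no Dox cell reached 10, and among the cells led by Cd209a 16 control cells held 316 of 524 UMIs and 5 Dox cells 71 of 173. In fibroblast-like cells Irf1 was at 1335 and 1300 CPM (log2 -0.04). Irf8 showed opposite directions among immune cells: 147 and 274 CPM in NK or T-like cells (log2 0.90, 0.68 to 1.12), but 125 and 31.2 CPM in the cells led by Cd209a (log2 -2.01, -2.61 to -1.46). A few cells with at least 10 Irf8 UMIs weigh on both values: in NK or T-like cells 5 control cells held 64 of 321 UMIs and 10 Dox cells held 127 of 369, and among the cells led by Cd209a 7 control cells held 118 of 196 UMIs and no Dox cell reached 10.

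The order of cell types was set by the mean of the libraries, and a step in it was read only where the Poisson intervals of neighbours were apart in both. For Irf7 the cells led by Chil3, which also carry macrophage markers but went unnamed, were highest at 291 and 379 CPM, and this first step was the one that stood in both libraries. Macrophage-like, NK or T-like, endothelial-like (48.9 and 50.7 CPM), Schwann-like, Cd209a-led, fibroblast-like, B cell-like and melanocyte-like cells followed, with RPE cells at 8.59 and 24.0 CPM and smooth muscle-like cells at 12.9 and 17.2 CPM at the bottom. By CPM, RPE cells were below smooth muscle-like cells in control and above them in Dox. The Dox intervals overlapped (22.3 to 25.8 in RPE cells and 12.1 to 23.65 in smooth muscle-like cells), so no step was read here.

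Irf9 had no step that stood in both libraries, from 73.5 and 61.2 CPM in the cells led by Chil3 down to RPE cells at 17.0 and 30.3 CPM and smooth muscle-like cells at 18.1 and 16.7 CPM. Stat2 likewise had none, with macrophage-like cells first by the mean of the libraries and RPE cells, at 16.3 CPM in control, near the end. Irf3 lay between 10.8 and 31.9 CPM in control and between 5.57 and 48.0 CPM in Dox with no step, and RPE cells (29.6 and 29.8 CPM) stood near the middle. Irf2 was highest in B cell-like cells (188 and 135 CPM) and lowest in RPE cells, which were apart from the next type. Stat6 was highest in the cells led by Chil3 (59.2 and 64.0 CPM) and lowest in RPE cells, with no step that stood in both libraries.

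Irf1, Irf5 and Irf8 were far lower in RPE cells than in their leading types. Irf1 was at 1335 and 1300 CPM in fibroblast-like and 1295 and 1229 CPM in endothelial-like cells, which did not differ beyond their intervals in both libraries, and all other types were apart from and below them. RPE cells were last, and their intervals did not meet those of the next type, the cells led by Cd209a at 335 and 174 CPM. Irf5 was led by the cells with Cd209a (270 and 286 CPM) and Chil3 (235 and 309 CPM), then macrophage-like cells (127 and 110 CPM). Only the steps from the first pair to macrophage-like cells and from these to B cell-like cells stood in both libraries. No Irf5 UMI was found in Schwann-like cells. Irf8 was led by NK or T-like, B cell-like (152 and 197 CPM) and macrophage-like cells (115 and 153 CPM), and RPE cells at 2.09 and 2.15 CPM were last by the mean of the libraries and did not meet the intervals of smooth muscle-like cells above them.

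**Figure D4:**
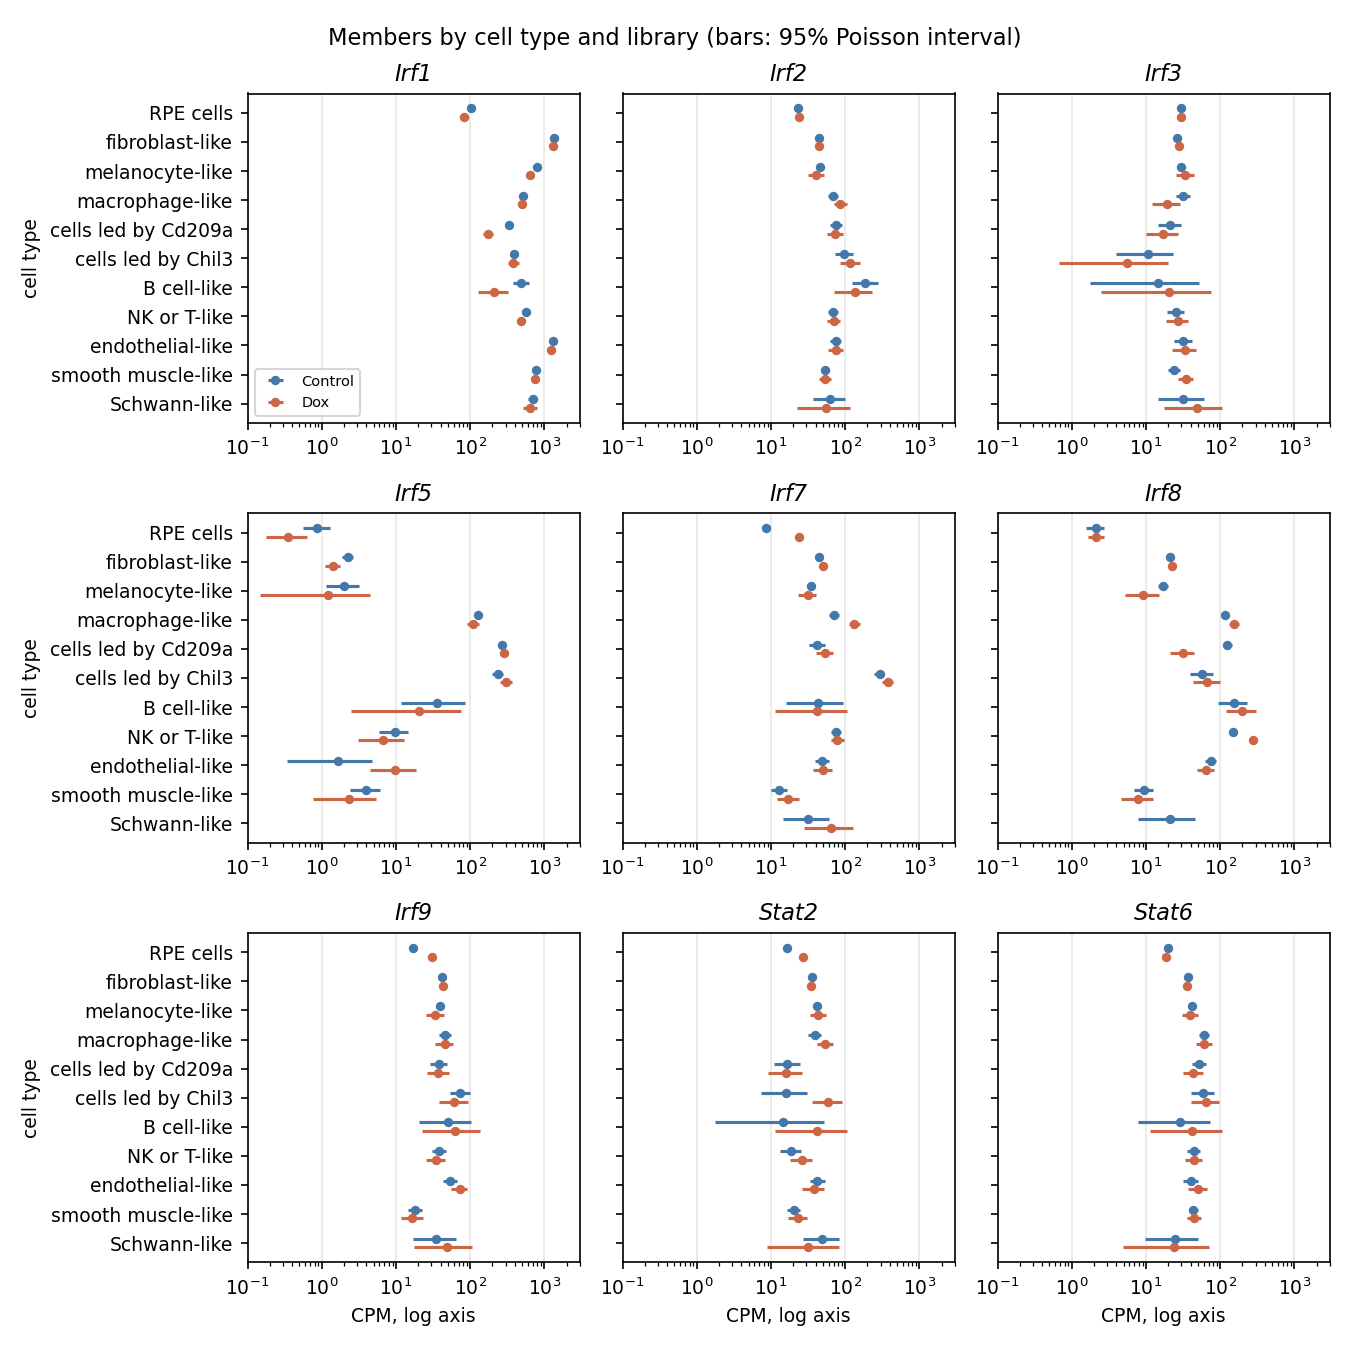
Level of each member (panels) in 11 cell types in CPM on a log axis for the Control and Dox libraries, with exact Poisson 95% intervals; Irf5 in Schwann-like cells and Irf8 in Dox Schwann-like cells had no UMI and are not drawn. Irf1 was at 1335 and 1300 CPM in fibroblast-like cells and at 102 and 82.2 CPM in RPE cells.

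The genes whose pattern over the 22 groups of 11 cell types and 2 libraries was most like that of each member are given as a description; the groups share libraries and depth. Among 13137 genes at 10 CPM or more in some group, Irf7 was followed most closely by Coro1b (Pearson r of log2(CPM + 1) 0.862), then Vsir and Ptpn1. Irf9 was closest to Nras (0.808), Ly6e and Cmtm6, and Stat2 to Tbc1d23 (0.794), Rnf227 and Gpatch1. Irf5 was closest to Spi1 (0.979), a myeloid and B cell transcription factor, then Cybb and Plek. For Irf1 the nearest were Slc29a1 (0.955), Nrp1 and Akap12, for Irf8 Il4ra (0.936), Rftn1 and Rps29, and for Stat6 Ets2 (0.875), Kdm6b and Etf1. For Irf2 they were Cebpz (0.905), Bcl10 and Zfp800, and for Irf3 Chmp7 (0.896), Kdm4b and Bcl2l1. Among the members themselves the highest correlation was between Irf7 and Irf9 (0.76) and the lowest between Irf3 and Irf5 (-0.75).

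When Dox-RPE cells were ordered by Irf7 itself after thinning to 5000 UMIs, 1321 cells had none, 82 had 1 and 25 had 2 or more. The type I response genes summed to 1500 CPM (1470 to 1529), 2200 CPM (2059 to 2348) and 5496 CPM (5093 to 5923) in the 3 groups, and the gamma response genes to 242, 495 and 952 CPM. Of the 25 Dox cells with most Irf7, 16 were Serpina3n-high, and none had a UMI of Ptprc, the pan-leukocyte marker, in the thinned counts. Fibroblast markers were at 1833, 4544 and 3200 CPM and macrophage markers at 200, 176 and 96.0 CPM. In control RPE cells ordered the same way (1280, 53 and 7 cells) the type I genes summed to 873, 1547 and 2000 CPM, and there the fibroblast markers (2508, 4019 and 5971 CPM) and the macrophage markers (446, 804 and 1600 CPM) had the same order, with 4 Ptprc UMIs in the 7 cells. Their part in the control values was not tested. In the Dox groups Stat2 was at 29.1 CPM (25.1 to 33.5), 51.2 CPM (31.7 to 78.3) and 24.0 CPM (4.95 to 70.1), and Irf9 was at 29.7 CPM in the cells without Irf7 and 46.3 CPM in those with 1 UMI. The last group held only 3 UMIs of Stat2 and 5 UMIs of Irf9.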

How the data were processed

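Single-cell RNA was read from the 5′ end by droplet capture in 1 control and 1 Dox library. The deposited matrices hold whole UMI counts per gene and cell, made by the authors with Cell Ranger 4.0.0 on mm10 per the submitters' processing notes; the depth and medians per library stand in the report. Cells were kept with over 500 UMIs, 200 to 6000 genes, a ratio of log10 genes to log10 UMIs above 0.8 and under 20% mitochondrial UMIs, the limits of the study. Doublets were reduced only by the limit on genes, and no caller was run. Clusters came from Leiden clustering at resolution 0.8 (leidenalg 0.10.2, python-igraph 0.11.9) on 40 principal components (scikit-learn 1.9.0) and 20 neighbours. Of 3000 variable genes, the members and the genes of the lists were dropped before clustering, which left 2966. The libraries were not integrated, unlike in the study. The 30 clusters were named from marker lists, by a naming rule set after the clusters were seen, and names may differ from those of the study. RPE cells by Rpe65 were taken out of all other types.

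UMIs were summed per group and scaled to CPM, with Poisson, conditional binomial and Clopper-Pearson 95% intervals (scipy 1.17.1, numpy 2.4.6, pandas 2.3.3, Python 3.11.15; figures with matplotlib 3.10.9). Intervals cover counting error only. No test was made, because each condition has 1 library. Genes with at least 20 UMIs in a comparison were counted past 1.5-fold. The text names all 9 members, the 3 genes of each list with the largest rise and fall (not all of them are printed), the 3 genes most like each member, and markers. The members and lists were chosen with earlier results of these data known, and no list is independent evidence. The intervals were tested only on simulated counts drawn from the Poisson model that they assume. That test cannot speak to real counts, which are unevenly spread among cells. Gene positions are from GENCODE vM21 (GRCm38) and promoters from RefSeq (GRCm38.p6), where all 9 members matched, at 12 start sites. Alternatives changed the Rpe65, Serpina3n, fold, UMI and mitochondrial limits, the scaling, the thinning and the doublet handling.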

Additional observations from a re-analysis of the deposited data

Results flagged for a closer look

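For 3 members the ratio of Dox over control pointed one way in some cell types and the other way in others, each with an interval that excludes 0; the differences between cell types were not tested. Irf3 had a log2 ratio of -0.72 in macrophage-like and 0.53 in smooth muscle-like cells, from 80 and 22 UMIs in the former and 116 and 75 UMIs in the latter. Irf5 had log2 ratios of -1.31 in RPE cells and -0.68 in fibroblast-like cells and of 0.39 in the cells led by Chil3. Irf8 had log2 ratios of -0.89 in melanocyte-like cells and -2.01 in the cells led by Cd209a, and of 0.41 in macrophage-like and 0.90 in NK or T-like cells. Each value compares 1 pair of libraries, and the intervals were not adjusted for the number of ratios examined.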

How the results depend on the processing

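Each condition was 1 library, so no setting speaks to the spread between eyes, and depth limits Irf5, Irf8 and every value of the 15 Serpina3n-high control cells. No paired analysis was possible because the libraries share no mice and carry no replicate numbers. Of 92 recomputed counts of members past the limit 78 stayed within 1.5 times and 14 moved, and of 328 recomputed member ratios 32 changed sign, 25 of them ratios whose interval included 0 to begin with and 7 ratios whose interval did not; those 7 are given here. Irf7 over all RPE cells kept its direction under 12 of 12 settings, at log2 1.09 to 1.94, and in Serpina3n-low cells under 14 of 14, at 0.36 to 0.99; the count of members higher in Serpina3n-low cells was 2 rather than 3 under 4 settings, with at least 20 Rpe65 UMIs, the mean of the cells' own CPM, thinning and the split at 500 CPM. Irf9 over all RPE cells was at 0.65 to 0.85 and Stat2 at 0.65 to 0.82. With a limit of 2-fold the count of members higher in Dox was 1 in all RPE cells and 0 in Serpina3n-low cells. The count of members lower in Dox, which was Irf5 alone, was 0 in all and in Serpina3n-low RPE cells when only cells in RPE-like clusters were used, after thinning, with at least 50 UMIs, and with the Serpine3-led and Serpina3n-led clusters only, a setting chosen after seeing the data; in Serpina3n-low cells it was also 0 with at least 5 Rpe65 UMIs. In Serpina3n-high cells the count of lower members was 1 after thinning and with the split at 500 or at 2000 CPM. With at least 5 Rpe65 UMIs Irf1 turned to 0.12 in all and 0.29 in Serpina3n-low RPE cells, and in the latter it was 0.0536 as the mean of the cells' own CPM and 0.0774 after thinning. In the Serpine3-led and Serpina3n-led clusters Irf5 was at 0.28 in all and 0.26 in Serpina3n-low cells, from too few UMIs to set a direction. Irf2 in Serpina3n-high cells was at -0.68 after thinning. The direction of Irf1 in RPE cells thus depended on the setting, and that of Irf5 rested on few UMIs and was not set in those clusters. The cause was not tested. The highest cell type of a member changed under 5 of 36 settings.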

Other observations

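Fibroblast-like cells with a UMI of the chemokines Cxcl9 or Cxcl10, genes of the gamma response, were 3332 of the control and 2754 of the Dox cells. Irf1 was at 1900 CPM (1880 to 1920) in these control cells and 1106 CPM (1096 to 1116) in the other control fibroblast-like cells, and at 1922 and 1038 CPM in the Dox cells. Irf8 was at 31.3 against 17.3 CPM in control and 34.4 against 17.8 CPM in Dox, and Irf7 at 57.9 against 38.8 CPM and 70.0 against 42.0 CPM. Irf3 was alike in both sets of cells, at 25.8 and 26.0 CPM in control and 26.3 and 28.0 CPM in Dox, and Irf2 stood at 44.6 and 44.5 CPM in control. Irf9 was at 46.1 against 40.6 CPM in control and 46.5 against 41.9 CPM in Dox. The median depth was close in the sets, 4648 and 4699 UMIs in control and 5322 and 5371 UMIs in Dox, and free RNA can give a chemokine UMI to a cell that does not express the gene. The sets were defined after the cell types had been seen, and no test was made.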
